A study of Mus musculus with 46 samples.

Results

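P005, P008 and P012 are 3 promoter fragments from the Klf2 locus of the mouse genome that do not lie within 200 bp of an annotated gene boundary. They were taken by name from the 23 promoter fragments of that locus, among 490 fragments in the Upstream assay of the series, and were compared with the other 20 promoters of the locus. The measured items are plasmid constructs with 1 or 2 such fragments and a barcoded reporter. Of the 19789 Klf2-locus constructs with 2 fragments, 1185 held at least 1 of these promoters, in either orientation, and 13 of those held 2 of them.

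The host cells were E14TG2a, a mouse embryonic stem cell (mESC) line grown in 2i+LIF, a medium with kinase inhibitors and a cytokine that keeps the cells undifferentiated. Plasmids entered the cells by nucleofection, and RNA was collected after 24 h. The Upstream libraries of the Klf2 and Nanog loci and the negative controls were transfected as 1 mix in 3 biological replicates. The Downstream libraries, in which the fragment sits behind the reporter and the vector carries its own promoter, were a second mix with 3 biological replicates. No other treatment, genotype or time point entered these comparisons. The reporters are transient plasmids, so a fragment was read outside its chromosomal setting.

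A promoter is the stretch of DNA at which RNA polymerase II starts a transcript, and most promoters lie at the annotated 5′ end of a gene. A candidate cis-regulatory element (cCRE) is a stretch of open chromatin away from gene starts that may act as an enhancer, raising the output of a promoter over a distance. In a reporter assay a fragment can be asked for both abilities, by itself or in front of another fragment. Klf2 encodes a transcription factor of the pluripotency network of mouse embryonic stem cells.

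Positions on chromosome 8 are those of the deposited tables (mm10, per the submitters' processing notes), and the genes are those of RefSeq on GRCm38.p6. P005 (chr8:72040842-72041292) overlapped no annotated gene. Its nearest one was the pseudogene Gm25052, at a gap of 3085 bp, and the nearest protein-coding gene, the olfactory receptor gene Olfr372, lay 16368 bp away. P008 (chr8:72134599-72135049) overlapped no gene but ended 239 bp before the start of Tpm4 (72135288 to 72153142, + strand), which encodes a tropomyosin of the actin cytoskeleton. P012 (chr8:72213561-72214011) lay 475 bp beyond the boundary of Cib3 (72204335 to 72213086), a gene for a calcium- and integrin-binding family protein, and 349 bp from P011, the promoter fragment that contains the RefSeq promoter window of Cib3. The 3 fragments therefore differ in how far they are from a gene: P008 and P012 missed the 200 bp limit by far less than P005 did.

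RefSeq promoter windows run from 250 bases before to 50 bases after an annotated start. None overlapped P005 or P012. The window of Tpm4 shared 12 bases with P008, and it is shown because it marks how much of an annotated promoter the fragment holds. The window is chr8:72135038-72135337 on the + strand of GRCm38.p6; capitals mark the 12 bases inside P008, and the 288 bases in lower case, with the annotated start itself, lie outside it.
Tpm4 promoter window: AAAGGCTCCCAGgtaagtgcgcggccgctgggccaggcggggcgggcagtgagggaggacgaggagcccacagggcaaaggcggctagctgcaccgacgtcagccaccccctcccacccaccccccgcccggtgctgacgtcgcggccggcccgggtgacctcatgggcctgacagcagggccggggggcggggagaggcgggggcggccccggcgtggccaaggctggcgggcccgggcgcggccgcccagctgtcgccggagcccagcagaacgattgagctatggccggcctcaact
Of the other promoters of the locus, 18 held at least 205 bases of a RefSeq window and P002 and P014 held none.

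Activity is the authors' ratio of complementary DNA (cDNA, reporter RNA) to plasmid DNA (pDNA) for a construct in each biological replicate, on a linear scale. Differences are given on the log2 scale. The number of barcodes and the read depth behind each ratio are unknown. All 3 transfections drew on 1 pool of plasmids, so their spread does not contain the variation among differently barcoded plasmids of a construct. Weak constructs also differed in level by replicate: the 161 oriented cCREs alone had median activities of 0.122, 0.0631 and 0.249 in replicates 1, 2 and 3. Constructs with a replicate at 0, left out of the tests, made up 6.41% of those with P005, P008 or P012 and 2.59% of all at the locus. Of the 76 such constructs, 12 were at 0 in replicate 1, 69 in replicate 2 and 0 in replicate 3. Behind cCREs, they were 10 of 36 constructs of P012 -, 11 of 86 of P005 - and 5 of 76 of P008 +. For P012 + they were 4 of 78, for P005 + 2 of 82 and for P008 - 1 of 73. Leaving out constructs at 0 can raise the averages that remain, most where many were lost.

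Alone, the 3 promoters gave weak reporter activity, within the range of fragments that had not been chosen as promoters. P005 in the + orientation had activities of 0.0986, 0.0402 and 0.216 in replicates 1, 2 and 3, and in the - orientation 0.0907, 0.0247 and 0.182. In each replicate these 6 values were below the median of cCREs alone. P008 had 0.118, 0.0505 and 0.242 in the + orientation, the direction of Tpm4, and 0.200, 0.0950 and 0.291 in the - orientation. The + values were below the cCRE median of each replicate and the - values above it. P012 in the - orientation had 0.102, 0.0361 and 0.231, below the cCRE median in every replicate.

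P012 in the + orientation had 1.12, 0.0133 and 0.244. Its replicate 1 stood apart: the highest replicate was 84.5 times the lowest, while the largest such ratio among the other 5 oriented constructs was 7.36 and among the other promoters of the locus 15.1. Its geometric mean was 0.154 over all 3 replicates and 0.0570 over replicates 2 and 3. Every comparison that uses P012 + alone as its baseline carries that spread.

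Tested with limma against the median cCRE alone, 0 of the 6 oriented promoters passed an adjusted p of 0.05, and 2 of 6 had an unadjusted p below 0.05. Of all 207 oriented single fragments of the locus, 26.1% passed this test in either direction. The log2 differences were -0.39 (95% interval -0.84 to 0.07) for P005 + and -0.74 (-1.43 to -0.06) for P005 -, with limma adjusted p of 0.18 and 0.11. For P008 they were -0.14 (-0.55 to 0.28) in the + and 0.51 (0.04 to 0.98) in the - orientation, with limma adjusted p of 0.53 and 0.11. P012 - had -0.39 (-0.94 to 0.16, limma adjusted p = 0.23). P012 + had 0.31 with an interval from -2.69 to 3.31, which leaves its level undetermined, and -1.14 as the mean of replicates 2 and 3. Of the 161 oriented cCREs alone, 16.8% had a lower geometric mean than P005 +, 3.73% than P005 -, 37.9% than P008 +, 75.8% than P008 -, and 16.8% than P012 -.

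Against the median of the other promoters of the locus, 5 of the 6 were lower by limma, and 74.4% of all single fragments were called lower in the same test. The differences were -2.13 for P005 +, -2.48 for P005 -, -1.88 for P008 +, -1.23 for P008 - and -2.13 for P012 -, with limma adjusted p between 0.00027 and 0.0082. P012 + had -1.43 (interval -2.99 to 0.13, limma adjusted p = 0.078). The distance to the strongest promoter was far larger: P022 in the + orientation had activities of 19.8, 19.4 and 16.6.

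Not all promoters at annotated starts were stronger. By the geometric mean of both orientations P008 ranked 17 of 23 with 0.1413, between P010 at 0.160 and P004 at 0.1413. P012 ranked 20 with 0.121, between P011, the Cib3 promoter, at 0.124 and P024 at 0.112. That rank rests on replicate 1 of P012 +: over replicates 2 and 3 P012 had 0.0722 and was the lowest of the 23, just below P026 at 0.0727 and P005 at 0.0791. Over all replicates P005 ranked 22 with 0.0839, between P024 and the lowest promoter of the locus, P026, at 0.0818. The gaps between these neighbours were small beside the spread of their replicates, which were 3.06 to 7.36 times apart for the 5 orientations of these promoters other than P012 +. Of the 40 orientations of other promoters alone, 26 were above the median cCRE by limma and 0 below it.

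The orientation of a promoter alone was tested as the + minus the - value in each replicate. P008 had -0.77, -0.91 and -0.27, with the - orientation the more active in all 3 replicates, a mean of -0.65 and a limma adjusted p of 0.057. P005 had 0.12, 0.70 and 0.25, a mean of 0.36 (limma adjusted p = 0.16). P012 had 3.45, -1.44 and 0.08 and a mean of 0.70 (limma adjusted p = 0.59), with signs that differed between replicates. Thus 0 of 3 passed, where 29.3% of 99 fragments of the locus passed, 22.2% with the + orientation higher and 7.07% with it lower, and 1 of the 3 had an unadjusted p below 0.05.

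Placed next to the reporter behind cCREs, none of these promoters was called above the cCREs in that place, and P005 was called below them. Each cCRE-promoter construct was set against the median cCRE-cCRE construct with the same oriented first cCRE, and the differences were averaged over first cCREs. P005 gave -0.63, -0.88 and -0.36 over 155 constructs, a mean of -0.62 ± 0.26 (SD, n = 3; limma adjusted p = 0.035), the lowest of 22 promoters and 92nd of 97 fragments. P008 gave 0.04, -0.23 and -0.09 over 143 constructs, a mean of -0.09 ± 0.14 (limma adjusted p = 0.53). P012 gave -0.50, -0.80 and -0.26 over 100 constructs, a mean of -0.52 ± 0.27 (limma adjusted p = 0.054). So 1 of the 3 was called lower, where 7.22% of all fragments were and 35.1% were called in either direction. That call was lost without replicate 1 (-0.62, limma adjusted p = 0.48) and with only the + orientation (-0.40, limma adjusted p = 0.067). The other 19 promoters ranged from -0.35 to 5.34, 12 of them called higher and 0 lower.

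In front of cCREs, with the cCRE next to the reporter, none of the 3 was above the typical cCRE in that place. P005 gave -0.47 ± 0.29 over 188 constructs, P008 -0.22 ± 0.15 over 137 and P012 -0.50 ± 0.29 over 92 (SD, n = 3), and 0 of 3 passed limma's test, with 2 of 3 at an unadjusted p below 0.05. For P012 this place held 100 constructs in the - and 2 in the + orientation, before those with a 0 were dropped. Behind cCREs 74 were + and 26 were -, so the 2 places hold different orientations of P012. Of 96 fragments 27.1% were called, 24.0% higher and 3.12% lower.

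Swapping the order of the same pair of oriented fragments asks whether a fragment gains from the place next to the reporter, as a promoter would. Over the 22 promoters of the locus the difference, cCRE-promoter minus promoter-cCRE, reached 2.84, and limma called 68.2% of them, 63.6% higher and 4.55% lower. P005 gave -0.05, -0.10 and -0.16 over 114 pairs, a mean of -0.10 (95% interval -0.39 to 0.19), and P008 gave 0.03, 0.13 and -0.05 over 81 pairs, a mean of 0.04 (-0.25 to 0.33). P012 gave -0.18, -0.65 and -0.17 over 21 pairs, a mean of -0.33 (-0.62 to -0.05, limma adjusted p = 0.036), the lowest of the 22. That fit found 1 error for all promoters, and the P012 call was lost when any replicate was left out. The values without it ran from -0.18 without replicate 2 to -0.42 without replicate 3. The 21 pairs were almost all of P012 -, since P012 + stood in front of cCREs in only 2 constructs.

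Few cCRE-promoter pairs were called above the activity of these promoters alone. Of 398 cCRE-promoter constructs tested, 6 were higher and 0 lower by limma, where 4.10% of all 3685 cCRE-promoter pairs of the locus were called higher and 12% lower. Each replicate number marks 1 transfection, so it pairs a construct with its baseline. With the replicate as a block 13 were called higher and 5 lower, against 6.62% and 21.6% of all pairs. Without any single replicate 0 of the 3685 pairs were called, although 508 to 1206 had an unadjusted p below 0.05, and 3 to 17 of the 398. All tests on 1 oriented promoter share its 3 values alone. With E007 + in front, the SE without the block was 0.64 for P005 +, 0.77 for P005 - and 1.65 for P012 +. For the more active P001 + it was 0.15. These SEs include shifts in level shared by a construct and its baseline within a replicate, which the block takes out. The low count of calls therefore cannot tell a weak response from wide errors at weak baselines.

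The 6 calls involved 2 cCREs. E007 (chr8:71922525-71922975) spans a boundary of the zinc-finger gene Zfp617 (71922825 to 71934630), so it does not lie away from a gene edge. Whether that boundary is the start of the gene is not given here. E007 was the most active cCRE alone, with 9.07, 9.31 and 7.57 in the + orientation and 1.79, 1.81 and 1.72 in the - orientation. In front of P008 + it gave 1.33, 1.67 and 1.82, all above the 0.118, 0.0505 and 0.242 of that promoter alone, a log2 difference of 3.82 ± 0.59 (SE, limma adjusted p = 0.018). E007 + in front of P008 - gave 0.937, 0.889 and 1.14, a difference of 2.48 ± 0.44 (limma adjusted p = 0.024).

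The same cCRE in front of P005 + gave 0.848, 0.616 and 0.923, a difference of 3.05 ± 0.64 (limma adjusted p = 0.036). In front of P012 - it gave 0.848, 0.817 and 0.890, a difference of 3.16 ± 0.69 (limma adjusted p = 0.039). Groups did not overlap in any of these 4 combinations, which were named because they were called. The share of all pairs without overlap was not counted. E007 + with P005 - gave 0.315, 0.339 and 0.506, again above every value of that promoter alone, but its difference of 2.35 did not pass (limma adjusted p = 0.11). E007 + with P012 + gave 0.594, 0.513 and 0.642, between the values of its scattered baseline (limma adjusted p = 0.56).

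E097, which overlaps Nwd1, had 2.31, 1.93 and 2.04 alone in the + orientation. In front of P008 - it gave 1.74, 1.09 and 1.22, a difference of 2.90 ± 0.46 (limma adjusted p = 0.018), and in the - orientation 0.928, 0.575 and 1.40, a difference of 2.36 ± 0.54 (limma adjusted p = 0.044). Both sets of values were above all those of P008 - alone, and these pairs too were named because they were called.

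The pairs with E007 were nonetheless far below E007 by itself. Against E007 + alone the 6 constructs gave log2 differences from -4.51 with P005 - to -2.43 with P008 +, and all 6 were called lower by limma (adjusted p from 6.2e-05 to 0.0020). E097 - was called lower than alone with P005 + (-1.64), P005 - (-2.56), P008 + (-1.62) and P012 + (-1.60), with limma adjusted p from 0.0037 to 0.030. With P008 - behind it, E097 + differed from its own level alone by -0.66 (interval -1.82 to 0.50, limma adjusted p = 0.37) and E097 - by -0.22 (-1.47 to 1.04, limma adjusted p = 0.83). Over all 398 constructs of these promoters, 3 were higher and 25 lower than their cCRE alone, where 48.2% of all pairs were higher and 1.82% lower. With the replicate as a block 5 were higher and 54 lower, against 51.1% and 4.07% of all pairs. E007 + was below its level alone in front of other cCREs as well: its 128 cCRE-cCRE constructs ran from 0.230 to 7.13 with a median of 0.999, near the values in front of P008 - and P012 -.

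The 3 constructs above their cCRE alone were E052 - with P008 - (2.30), E061 + with P005 - (2.09) and E027 + with P005 + (1.78), with limma adjusted p of 0.035, 0.015 and 0.044. They were named after their values were seen. E061 + with P005 - had 0.473, 0.443 and 0.767, above P005 - alone by 2.87, which passed with the replicate as a block (limma adjusted p = 0.041) and not without it (0.066).

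The boost index, the log2 activity of a construct over the median construct with the same oriented promoter, gives the response to cCREs without the promoter's own scattered baseline. Its mean was 0.02 ± 0.09 for P005, 0.08 ± 0.02 for P008 and -0.02 ± 0.07 for P012 (SD, n = 3), ranks 12, 6 and 18 of 22 promoters. By construction the median construct has an index of 0, so these means describe the shape of the distribution. Single constructs ran from -1.69 to 2.93 with P005, from -1.60 to 3.90 with P008 and from -1.60 to 3.33 with P012. The SD over constructs was 0.72, 0.77 and 0.75, ranks 12, 8 and 10 of 22. It was 1.23, 1.31 and 1.39 in replicate 2 alone and 0.49, 0.59 and 0.48 in replicate 3. This SD also holds measurement scatter, so its rank does not by itself place the response to cCREs.

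Over the 49 cCREs measured with at least 4 of the 6 oriented promoters, the highest mean indices were those of E007 (2.92), E097 (1.98) and E046 (1.16), which lies 8014 bp from the nearest gene. The lowest were those of E048 (-0.62), E077 (-0.56) within Slc35e1, and E015 (-0.52) within Zfp961. E007 and E097 were also first and second with the other 20 promoters, at 2.42 and 1.77, and E046 was seventh at 0.61. Across the 49 cCREs the mean index with these promoters and with the others had a Pearson correlation of 0.89 and a Spearman correlation of 0.68, and a Pearson correlation of 0.81 without E007. This is a description, since all constructs come from 1 plasmid pool and the same 3 transfections.

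No cCRE was shown to act differently on these promoters than on the others. In limma's fit of the difference over 53 cCREs, 0 passed an adjusted p of 0.05 (0% called) and 10 had an unadjusted p below 0.05. The differences furthest from 0 were E077, with -0.21, -1.34 and -0.30 in the 3 replicates and a mean of -0.62, and E078, with 0.59, 0.91 and 0.33 and a mean of 0.61, both at a limma adjusted p of 0.082. For E007 the difference was 0.50 (interval 0.10 to 0.90, limma adjusted p = 0.13), with 0.34, 1.15 and -0.0070 in the 3 replicates. That fit found 1 error for all cCREs, so the interval does not show the spread of E007 itself.

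The likeness of promoters was described by the Pearson correlation of their mean index per cCRE. P005 correlated most with P024 (Pearson 0.83 over 34 cCREs) and P008 (0.79 over 51), P008 with P023 (0.88 over 55) and P010 (0.88 over 55), and P012 with P010 (0.75 over 50) and P008 (0.75 over 48). E007 carries part of these values. Without it the first named for each was still first, at 0.72, 0.82 and 0.60, while P016 (0.70) came next for P005, ahead of P008 (0.66). The indices of 1 promoter in its + and - orientations correlated at 0.33 over 69 oriented cCREs for P005, 0.60 over 62 for P008 and 0.67 over 25 for P012, and the other promoters ran from 0.39 to 0.86. Between replicates the index of single constructs correlated at 0.24 to 0.63 for these promoters and at 0.64 to 0.69 for the others pooled.

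In front of another promoter, every called difference of the 3 fragments was a lower reporter activity. Of 146 promoter-promoter constructs with 1 of them as the first fragment, 44 were lower and 0 higher than the second promoter alone by limma. Over all 1317 such pairs of the locus 11.2% were called lower and 29.9% higher. With the replicate as a block 55 were lower, against 15.8% of all pairs. The count was 0 without replicate 1, 6 without replicate 2 and 37 without replicate 3. Over all 1317 pairs the calls in either direction were 0, 299 and 534 in these settings, so the 0 was not particular to these promoters. P005 gave 12 lower of 61, P008 17 of 51 and P012 15 of 34, all of the latter in the - orientation, the only one measured there. In sign, 56 of 61, 40 of 51 and 34 of 34 constructs were below the second promoter alone, passing or not. Over all 1317 pairs 745 were above the second promoter alone, and of 3685 cCRE-promoter pairs 1039 were above their promoter alone. Constructs with the same second promoter share its 3 values, so these signs are not independent.

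The largest called differences of P012 - were with P013 -, which fell from 0.380, 0.314 and 0.460 alone to 0.0827, 0.0776 and 0.181 (log2 difference -1.85 ± 0.38, SE, limma adjusted p = 0.013). P009 - fell from 1.21, 1.03 and 1.15 to 0.440, 0.294 and 0.421 behind it (-1.58 ± 0.20, limma adjusted p = 0.0030), and P018 - to 1.13, 0.972 and 1.11 from 2.55, 2.22 and 2.21 (-1.12 ± 0.14, limma adjusted p = 0.0027). P013 and P009 cover the starts of Fam32a and of Rab8a, a small GTPase of membrane traffic. In each of the 3 pairs every value was below every value of the promoter alone, which follows in part from choosing the largest called differences.

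For P008 the largest called differences were with P017 -, which fell from 2.20, 2.21 and 2.13 to 1.01, 0.852 and 0.971 behind P008 - (-1.21 ± 0.13, limma adjusted p = 0.0019). P001 + fell from 1.12, 1.18 and 1.17 to 0.451, 0.522 and 0.572 behind P008 + (-1.17 ± 0.14, limma adjusted p = 0.0026). P009 - behind P008 - had 0.670, 0.320 and 0.591 (-1.17 ± 0.31, limma adjusted p = 0.032).

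P005 had smaller ones. P009 + fell from 2.24, 2.03 and 2.02 to 1.18, 0.978 and 1.07 behind P005 + (-0.97 ± 0.14, limma adjusted p = 0.0043), and P001 + to 0.588, 0.661 and 0.731 behind P005 - (-0.81 ± 0.14, limma adjusted p = 0.0072). The strongest promoter, P022 +, fell from 19.8, 19.4 and 16.6 to 11.3, 9.96 and 10.9 behind P005 + (-0.79 ± 0.14, limma adjusted p = 0.0085). At the other end, the highest differences were 0.27 for P005 + before P003 - and 0.13 before P025 -, and 0.47 for P008 + before P007 + and 0.24 for P008 - before P002 -. None passed (limma adjusted p from 0.45 to 0.92). For P012 - the highest were -0.08 before P014 + and -0.15 before P005 - (limma adjusted p of 0.78 and 0.94).

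To compare the first fragment with cCREs in that place, each construct was also set against the median cCRE-promoter construct with the same oriented promoter. P005 gave -0.27, -0.35 and -0.11 over 59 constructs, a mean of -0.25 ± 0.12 (SD, n = 3; limma adjusted p = 0.041). P008 gave -0.23, -0.21 and -0.12 over 46, a mean of -0.19 ± 0.06 (limma adjusted p = 0.060). P012 gave -0.47, -0.64 and -0.36 over 32, a mean of -0.49 ± 0.14 (limma adjusted p = 0.0065), 96th of 102 fragments and 22nd of 23 promoters. So 2 of 3 were called lower, where 31.4% of all fragments were and 59.8% were called in either direction. The call of P005 was lost without replicate 1 or 2 and with the median over partners (-0.15). The median of the other 20 promoters was 0.63, with 14 called higher and 3 lower.

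In the second place, next to the reporter and behind another promoter, constructs with these fragments followed the first promoter only in part. Of 157 such constructs, 32 were above the activity of the fragment alone by limma, 31 of them among the 87 whose first promoter had an activity over 1 alone. Over all 1317 pairs 29.9% were called higher in this test. A replicate block gave 41 higher, against 34.5% of all pairs. P022 + in front of P008 + gave 9.36, 10.1 and 8.13, a difference of 6.34 ± 0.58 (limma adjusted p = 0.0012) from P008 + alone, and P017 + in front of P008 + gave 9.46, 8.56 and 6.49, a difference of 6.16 ± 0.59 (limma adjusted p = 0.0014).

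Against the first promoter alone, 94 of the 157 were lower and 1 higher by limma, where 30.2% of all 1317 pairs were lower and 37.9% higher. A replicate block gave 111 lower and 2 higher, against 32.9% and 39.4%. Among the 87 with a first promoter over 1, 86 were lower, and among the other 70, 8 were lower. That split uses the baseline itself, which favours lower values behind a strong first promoter, so it is given with the same split for the other second promoters: 291 of 544 and 13 of 616 were lower. The difference between these shares was not tested. The extreme was P014 + in front of P005 -, at 0.163, 0.0757 and 0.197 against 6.53, 6.51 and 5.51 for P014 + alone (-5.52 ± 0.39, limma adjusted p = 0.00011). The 1 higher was P023 + in front of P005 +, at 0.787, 0.936 and 0.842 against 0.238, 0.153 and 0.345 (1.87 ± 0.32, limma adjusted p = 0.0027). These examples were chosen after their values were seen.

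In this place P008 stood apart from P005 and P012. Against the median promoter-cCRE construct with the same first promoter, P005 gave -0.75, -0.97 and -0.65 (mean -0.79, limma adjusted p = 0.0073) and P012 -0.80, -0.56 and -0.62 (mean -0.66, limma adjusted p = 0.0078), the last and next to last of 23 promoters. P008 gave 0.10, 0.14 and 0.07, a mean of 0.10 (interval -0.09 to 0.30, limma adjusted p = 0.24), above both others in every replicate, while P005 and P012 overlapped. The differences between the fragments were not tested. Of 104 fragments 33.7% were called lower and 77.9% in either direction.

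In the Downstream assay the fragments sat behind the reporter, in other samples, with 10 promoter vectors and 1 vector without a promoter. The reference was the mean of the control inserts measured with the same vector, out of 20 controls, 15 shuffled and 5 random, in 2 orientations. All 40 oriented controls were measured with 7 vectors, 39 with P009 and the vector without a promoter, 32 with P021 and 10 with P001. Of 63 constructs with these fragments 11 were higher and 15 lower than the controls by limma, where 37.9% of all 1964 inserts were higher and 13.8% lower. With the replicate as a block 23 were higher and 28 lower, against 57.0% and 26.5% of all. With the vector promoter alone as the baseline, 2 were higher and 34 lower, and 23 of the 63 differences turned from above to below the baseline, 7 of them among the 11 called higher. No called lower difference turned sign. Single control inserts spread widely themselves, for example from 0.474 to 7.70 around a median of 1.10 with the P014 vector, so a called difference from their mean places an insert against an average control.

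P008 in the - orientation held 9 of the 15 lower calls, from 11 vectors, and all 11 were lower with the replicate as a block. With the P014 vector it gave 0.341, 0.308 and 0.352 where the controls averaged 1.23, 1.15 and 1.04, a difference of -1.77 ± 0.11 (SE, limma adjusted p = 2.4e-05). With P022 it gave 2.12, 2.26 and 2.79 against 2.70, 2.50 and 2.93, the difference nearest to 0 at -0.19 (limma adjusted p = 0.26). With 8 of the 10 promoter vectors it lay below every single control insert, 1 of them the P001 vector with only 10 controls. The share of other inserts that did so is not given here. Averaged over the 10 promoter vectors it gave -1.25, -1.16 and -1.03, a mean of -1.15 ± 0.11 (SD, n = 3). That was the lowest of 223 oriented inserts, followed by E030 - at -0.998 and P004 - at -0.84. The 40 oriented controls ran from -0.77 to 0.80, so the averages of E030 - and P004 - also lay below that range. In limma's fit of these averages 82.1% of the inserts were called in either direction, controls included.

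In the + orientation P008 averaged -0.18, -0.17 and -0.17, within the range of the controls, from -0.69 with P017 to 0.61 with P021. The + minus - difference of P008 was 1.07, 0.99 and 0.86, a mean of 0.97 ± 0.11 (SD, n = 3), the highest of 104 inserts. Most inserts passed this orientation test (88.5%, with the + orientation higher in 48.1% and lower in 40.4%), and single controls differed between orientations by -1.02 to 0.73. Alone in the Upstream assay the - orientation of P008 had been the more active one, a difference that did not pass its test. Behind other promoters in that assay the order varied. Among first promoters over 1 alone, P008 + was higher in every replicate behind P014 +, P017 + and P017 -. The same held behind P009 -, P018 +, P019 -, P021 +, P021 - and P022 +. P008 - was higher in every replicate behind P001 +, P018 - and P019 +, and behind P009 + the replicates differed. With P017 + in front, P008 + gave 9.46, 8.56 and 6.49 and P008 - gave 3.55, 4.36 and 3.00. With P001 + in front, P008 + gave 0.178, 0.149 and 0.342 and P008 - gave 0.202, 0.197 and 0.400. The difference between the assays was not tested.

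Averaged over the promoter vectors, P005 and P012 lay within the range of the controls as Downstream inserts. With single vectors, P005 - was above every control insert with 1 vector and P012 + with 1 vector, by small margins. For P005 - this was P001, with a geometric mean of 0.302 against 0.285 for the highest of only 10 controls. For P012 + it was P013, with 2.017 against 2.005. The averages were -0.0016 ± 0.05 for P005 +, 0.33 ± 0.03 for P005 -, 0.28 ± 0.04 for P012 + and -0.05 ± 0.01 for P012 - (SD, n = 3), the third of these over 7 vectors. By vector P005 + ran from -0.47 with P014 to 0.53 with P001, and P005 - from -0.11 with P017 to 0.80 with P001. Against the P001 vector alone these highest values were -0.49 and -0.22. P012 - ran from -0.42 with P017 to 0.32 with P022, the latter -0.29 against the P022 vector alone. P012 + ran from -0.19 with P016 to 1.26 with P013, where it gave 1.87, 2.33 and 1.88 against 0.955, 0.845 and 0.746 for the controls (limma adjusted p = 0.00017). All 3 replicates of that insert were above all 3 control means.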

How the data were processed

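The deposited activities are linear ratios of cDNA to pDNA per construct and biological replicate; per the labels, 2 pDNA replicates were sequenced for each library mix. Bowtie2 and mm10 are named in the submitters' processing notes, and the counting and filtering of barcodes are not given in the sources used here. A further 22 columns of values matched no single sample and were not used. The authors' ratios were taken as log2, dropping any construct that had a 0 in a replicate; depth is unknown.

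Tests used limma 3.58.1 in R 4.3.3 (lmFit, eBayes), fitted over all Klf2-locus or all Downstream items, with Benjamini-Hochberg adjustment at 0.05. Levels needed at least 10 constructs, or 3 partner promoters, or 5 vectors. Values were prepared with Python 3.11.15, numpy 2.4.6 and pandas 2.3.3. All intervals are 95% intervals of the fit. Pair tests took 3 values against 3, and the replicate number, which marks 1 transfection of both constructs, entered as a block in an alternative. Other alternatives were a pseudocount of 0.01, other baselines and references, a variance trend, a filter on the lowest 0.25 share of pairs and leaving out each replicate. Baselines on the first fragment alone, Downstream averages over vectors, the level behind promoters, the difference per cCRE, P012 + without replicate 1, the order over replicates 2 and 3 and the split by first promoter were added after seeing the data.

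The fragments and lists were chosen with earlier results of these data known. For each promoter the text names the 3 largest called pairs in each direction, the 3 highest and 3 lowest cCREs, 2 most alike promoters, neighbours in rank, and the highest and lowest Downstream values; the highest effects in front of promoters are named too. The tests were tested on simulated data. Sequences of the fragments themselves were not used here.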

Additional observations from a re-analysis of the deposited data

How the results depend on the processing

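Replicate 2 has the lowest values of weak constructs and P012 + alone rests on 1 outlying value, and differences from single weak promoters have wide intervals. With 1 replicate left out, the count of the 6 orientations below cCREs alone was 0 to 1, of promoters with a called orientation effect 0 to 1 in either direction, of promoters lower behind cCREs 0 to 2, of those lower in front of promoters 1 to 2, and of those lower by order 0. The count of cCRE-promoter pairs was 0 in both directions, over all pairs and over those of these promoters. Promoter-promoter counts were 0 to 393 higher and 0 to 141 lower over all pairs, from 394 and 148, and 0 to 37 lower for these promoters. Downstream, 475 to 817 inserts were higher and 130 to 334 lower, with 5 to 15 higher and 9 to 16 lower among these fragments.

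With the replicate as a block, 244 cCRE-promoter pairs were higher and 797 lower, from 151 and 441, of which 13 and 5 were of these promoters; Downstream counts rose to 1119 higher and 520 lower, from 744 and 272, and to 23 and 28 for these fragments. A variance trend gave 275 higher and 888 lower pairs, 12 of the higher ones of these promoters. Without the 0.25 share of pairs with the lowest activity, 689 pairs were lower. The median construct as baseline left 3 higher pairs of these promoters and 89 lower pairs in all. With the vector promoter alone as the Downstream baseline, 235 inserts were higher and 740 lower, 2 and 34 of them of these fragments. The median over partners left 1 promoter lower in front of promoters and 0 lower by order.

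Signs turned for P012 + against cCREs (-0.0065 with the mean as reference, and -1.14 to 1.59 with a replicate left out) and against other promoters (-2.87 to 0.17 with a replicate left out), and for the orientation of P012 (-0.68 to 1.77 with a replicate left out). They turned for P008 behind cCREs with only the - orientation (0.16), and for the order of P008 (-0.012 to 0.082 with a replicate left out, -0.059 with only the + orientation) and P005 (0.0046 with only the + orientation). Downstream they turned for P005 - against the vector promoter alone (-0.19 with P009, -0.22 with P001, -0.073 with P021), P005 + with P001 (-0.49) and P012 - with P022 (-0.29) on that baseline, and against the median control for P005 - with P017 (0.052) and for P008 - with the vector without a promoter (0.087). Among the named pairs in front of promoters, differences that had not passed turned with the median construct as baseline for P005 + before P025 - (-1.24) and P003 - (-0.059), P008 - before P002 - (-1.09), P008 + before P007 + (-0.037) and P012 - before P014 + (0.14). With a replicate left out they ran from -0.56 to 1.11 for P005 + before P025 -, -0.10 to 0.44 for P008 - before P002 -, -0.31 to 0.083 for P012 - before P005 - and -0.21 to 0.11 for P012 - before P014 +. The mean boost index of P005 was -0.015 to 0.069 and of P012 -0.058 to 0.0060 with a replicate left out, and that of P008 was 0.10 with the pseudocount and 0 with the median over partners. The cause of these changes was not tested.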
